A study of Mus musculus with 15 samples.

Results

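Cytosolic ribosomal protein genes encode the protein part of the ribosome. They were taken as the protein-coding mouse genes whose symbols start with Rpl (large, 60S subunit) or Rps (small, 40S subunit), leaving out the Rps6k kinases and symbols marked as pseudogenes. The rule found 89 of the 36528 listed genes. Of these, 77 are core genes (46 of the large and 31 of the small subunit). Apart from them stand 8 paralogs (Rpl3l, Rpl7l1, Rpl10l, Rpl22l1, Rpl32l, Rpl36al, Rpl39l and Rps27l), 3 retrogenes (Rpl37rt, Rps27rt and Rps23rg1) and 1 gene for a binding protein, Rps19bp1. All 77 core genes and 86 of the 89 members passed the filter on low counts. Rpl3l, Rpl10l and Rpl39l did not.

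Most core proteins are present once per ribosome, and their genes are broadly expressed together. The messenger RNAs are short and abundant and many begin with a 5′ terminal oligopyrimidine tract, a C followed by a run of C and T (U in the RNA), through which mTOR and LARP1 control their translation. In the skin, growing basal keratinocytes and hair follicle cells are known for high ribosome production. The genes also have many processed pseudogenes and a few expressed paralogs, so that a short read of one can match several places in the genome.

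Skin tumour cells of a mouse model of basal cell carcinoma, collected by sorting, gave 15 polyA RNA libraries: 4 control, 8 at 6 days and 3 at 14 days of vismodegib, an inhibitor of the Hedgehog transducer Smoothened. All 3 groups carry the alleles K14Cre-ER, Ptch1fl/fl, p53fl/fl and Lgr5GFP. In such animals the keratin 14 promoter drives an inducible Cre in basal keratinocytes, the Cre deletes the Hedgehog receptor Ptch1 and the tumour suppressor p53, and GFP marks Lgr5. The controls therefore carry the same deletions, and the series describes them as untreated. The sources used here give neither the dose, the animals' age, the induction of Cre nor the gate of the sort. Nor do they say whether libraries came from separate mice, so p-values measure only the spread between these libraries, which may be technical.

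Total counts ran from 27336935 to 256569828. The numbers of the submitters' sample identifiers form 3 separate blocks, called ranges here, and no label says that they are batches. Range A holds controls 1 to 3 and 6-day libraries 1, 3, 4, 6 and 8. Range B holds control 4 and 6-day libraries 2, 5 and 7, and range C holds the 3 14-day libraries and no others. The 14-day time and range C therefore cannot be told apart. Range B stands apart in the ribosomal protein genes, so the comparisons between groups are given with and without its 4 libraries. The basal keratinocyte markers (7 of 7 detected) summed to 13628 to 22384 CPM (counts scaled to the TMM-adjusted size of the library) in control, 24292 to 39017 CPM at 6 days and 28676 to 40767 CPM at 14 days. The fibroblast list stayed at or under 21.7 CPM, the endothelial list at or under 3.91 CPM and the T cell list at or under 3.87 CPM. The myeloid list (7 of 7 detected) lay between 7.99 and 64.7 CPM in control, 7.29 and 15.8 CPM at 6 days and 29.5 and 66.8 CPM at 14 days, and the melanocyte list (5 of 5 detected) between 34.3 and 835 CPM.

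The sequences that carry the family's features are shown first. The RefSeq table of gene starts (GRCm38.p6) held 67 start windows for 57 of the 77 core genes. A tract of C followed by at least 4 bases that are each C or T, searched on the gene's own strand, began at the annotated first base in 13 of the 67 windows (19.4%), against 2.51% of all 32851 windows. It began within 10 bases either side of that base in 32 windows (47.8%), against 25.5% of all windows. The following 30 bases run from 15 before the annotated start to 15 from it, with the tract in capitals. They were chosen to show long tracts (Rpl35, Rpl7a), tracts of genes described below (Rps6, Rplp2, Rpl38) and Rps9, beside 2 genes that fell at 14 days in a comparison below and in which no such tract began within 10 bases (Rpl37a, Rpl41).
Rpl35, chr2:39005117-39005146, minus strand: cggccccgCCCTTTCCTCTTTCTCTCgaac
Rpl7a, chr2:26910792-26910821, plus strand: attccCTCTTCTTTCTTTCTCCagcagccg
Rps6, chr4:86857353-86857382, minus strand: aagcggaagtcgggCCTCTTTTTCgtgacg
Rps9, chr7:3704026-3704055, plus strand: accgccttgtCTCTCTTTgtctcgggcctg
Rplp2, chr7:141447636-141447665, plus strand: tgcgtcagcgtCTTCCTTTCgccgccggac
Rpl38, chr11:114668565-114668594, plus strand: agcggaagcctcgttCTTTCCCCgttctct
Rpl37a, chr1:72711245-72711274, plus strand: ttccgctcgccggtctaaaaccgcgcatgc
Rpl41, chr10:128549154-128549183, minus strand: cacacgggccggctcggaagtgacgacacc
In these letters the tract of Rpl38 begins exactly at the annotated start of its window, and that of Rps6 1 base before it. A gene can have more than 1 annotated start. The windows of Rpl38, Rpl7a and Rps9 lie inside the gene, whose outermost starts are at 114667818, 26910685 and 3703954. Those of the other genes shown are at the outermost start. The contrast between genes with and without a tract therefore covers only the windows shown.

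Family members can be near copies of each other. The first 90 bases of the coding sequence are shown for Rps27, for its retrogene Rps27rt and for its paralog Rps27l, with bases that differ from Rps27 in capitals.
Rps27: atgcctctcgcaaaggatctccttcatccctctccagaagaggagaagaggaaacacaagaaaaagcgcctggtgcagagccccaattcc
Rps27rt: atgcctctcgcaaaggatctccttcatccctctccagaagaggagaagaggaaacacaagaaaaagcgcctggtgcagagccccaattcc
Rps27l: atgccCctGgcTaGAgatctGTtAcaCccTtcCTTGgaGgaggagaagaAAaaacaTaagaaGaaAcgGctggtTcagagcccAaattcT
Rps27 (chromosome 3) and Rps27rt (chromosome 9) did not differ at any of 255 coding bases. Rps27l (chromosome 9) differed from Rps27 at 24 of the 90 bases shown and at 61 of all 255. Reads from the coding part of Rps27 and Rps27rt can therefore not be assigned to one of them, whereas most reads of Rps27l can.

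The core genes took a small share of the counts in each library, and the share differed most between identifier ranges. The files count only uniquely aligning reads, and the median core gene had 55.4% of its 50-base words at another locus. The share can therefore lie below the share of these genes in the RNA. In the range A controls it was 0.306, 0.195 and 0.268% of all counts, and in control 4 it was 0.789%. Of the 6-day libraries, the 5 of range A lay between 0.163 and 0.245%, and the 3 of range B were at 0.855, 0.808 and 0.848%. The 14-day libraries were at 0.131, 0.134 and 0.142%. Every 14-day library thus lay below every other library, and every range B library above every library of ranges A and C. Without range B the mean was 0.256 ± 0.056% (SD, n = 3) in control, 0.207 ± 0.0315% (SD, n = 5) at 6 days and 0.136 ± 0.00538% (SD, n = 3) at 14 days. Mitochondrially encoded transcripts took 0.415 to 0.556% of counts at 14 days, 0.576 to 2.33% in range A and 1.49 to 2.12% in range B. With these transcripts taken out of the total, the core share was 0.132 to 0.142% at 14 days. It was then 0.164 to 0.308% in range A and 0.801 to 0.868% in range B. The part of these transcripts in the result was not tested. In bulk RNA, fewer cells that make much ribosomal protein RNA and less of it per cell cannot be told apart.

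**Figure D1:**
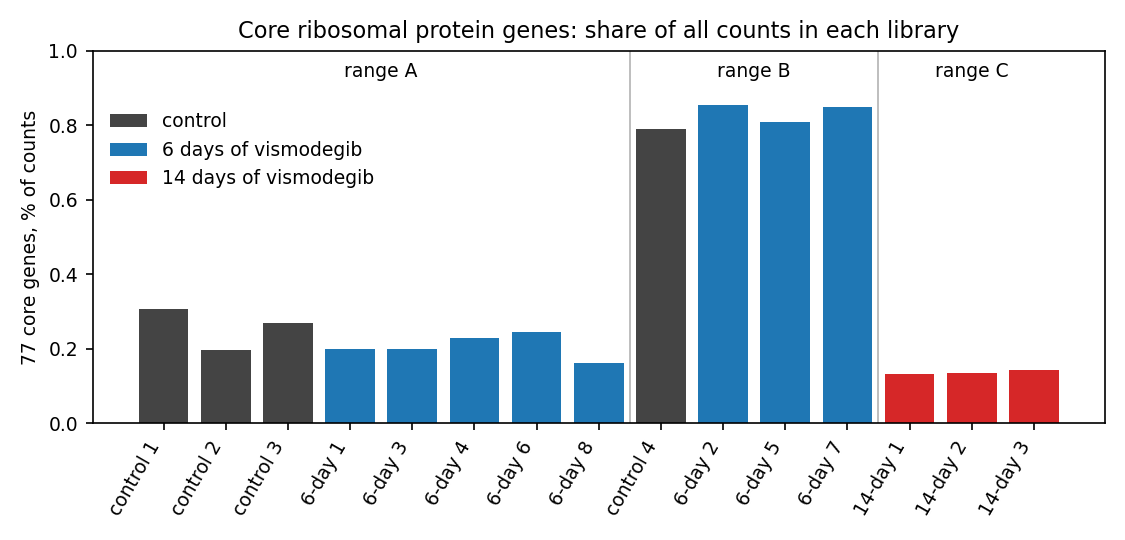
Percent of all counts in the 77 core ribosomal protein genes (vertical axis) in each of the 15 libraries, ordered by identifier range and coloured by group. Counts are of uniquely aligning reads only. The 3 libraries at 14 days sit between 0.131 and 0.142%, below all others, and the 4 of range B between 0.789 and 0.855%, above all others.

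At 14 days against control, every core gene had a lower fitted level, although few passed the test. All 77 log2 fold changes were negative, with a median of -1.65 against -0.02 for all 18751 genes tested. Of the 77, 4 fell (5.19%; edgeR quasi-likelihood test, Benjamini-Hochberg adjusted) and none rose, where 3.35% of all genes tested fell and 3.25% rose. The 4 were Rpl38, Rpl37a, Rpl36 and Rpl32, all of the large subunit. Their listed transcripts (345, 558, 383 and 517 bases) are all under 600 bases. Among genes of that length 4 of 28 core genes fell (14.3%), against 22.3% of 224 genes that are not members. In 65 of the 77 all 14-day libraries lay below all controls, against 11.7% of genes tested. Set against the range A controls alone the count was also 65, against 16.9%. In 46 they lay below all the other 12 libraries, against 4.41%.

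Rpl38 (Entrez Gene 67671, chromosome 11, 114667818 to 114672333 on GRCm38) encodes a large subunit protein known for its role in the translation of Hox messenger RNAs. Its level was 5.37, 2.73, 4.97 and 2.55 CPM in controls 1 to 4. At 6 days it ran from 1.52 through a median of 2.61 to 3.72 CPM, and at 14 days it was 0.766, 0.993 and 0.884 CPM. All 14-day libraries were below all others. Control 4, of range B, was the lowest control and lay within the spread of all range A libraries, which ran from 2.21 to 5.37 CPM. Of range B, 6-day libraries 5 and 7 (1.52 and 2.14 CPM) lay below every range A library and library 2 (3.72 CPM) did not. The log2 fold change at 14 days was -2.15 (SE 0.41, adjusted p = 0.00899 by edgeR), or -2.32 (SE 0.35, adjusted p = 0.00321) without range B. Rpl38 was still called in 14 of 15 fits that each left out 1 library, and its adjusted p was 0.0509 without 14-day library 1.

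Rpl37a (Entrez Gene 19981, chromosome 1, 72711260 to 72713813), which encodes a zinc-binding large subunit protein, was at 25.6, 12.4, 15.5 and 34.5 CPM in controls 1 to 4. At 6 days it ran from 11.9 through a median of 15.6 to 37.1 CPM, and at 14 days it was 4.48, 4.94 and 4.72 CPM. All 14-day libraries lay below all others, control and 6 days overlapped, and control 4 was the highest control. The log2 fold change was -2.22 (SE 0.47, adjusted p = 0.0133 by edgeR), or -1.94 (SE 0.27, adjusted p = 0.0028) without range B.

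Rpl36 (Entrez Gene 54217, chromosome 17, 56610094 to 56614246), of the large subunit, was at 7.26, 6.36, 8.84 and 16.1 CPM in controls 1 to 4 and at 2.05, 2.85 and 2.05 CPM at 14 days. Its 6-day levels ran from 4.44 through a median of 8.70 to 15.3 CPM. The log2 fold change at 14 days was -2.06 (SE 0.53, adjusted p = 0.0321 by edgeR), or -1.71 (SE 0.40, adjusted p = 0.0189) without range B. Again no 14-day library reached any other library.

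Rpl32 (Entrez Gene 19951, chromosome 6, 115805514 to 115808743), of the large subunit, was measured at a high level for a core gene. It was at 126, 63.7, 82.9 and 169 CPM in controls 1 to 4, and at 30.5, 35.4 and 35.9 CPM at 14 days. At 6 days it ran from 61.7 through a median of 74.5 to 176 CPM. The log2 fold change was -1.70 (SE 0.45, adjusted p = 0.0371 by edgeR), or -1.44 (SE 0.22, adjusted p = 0.00321) without range B.

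**Figure D2:**
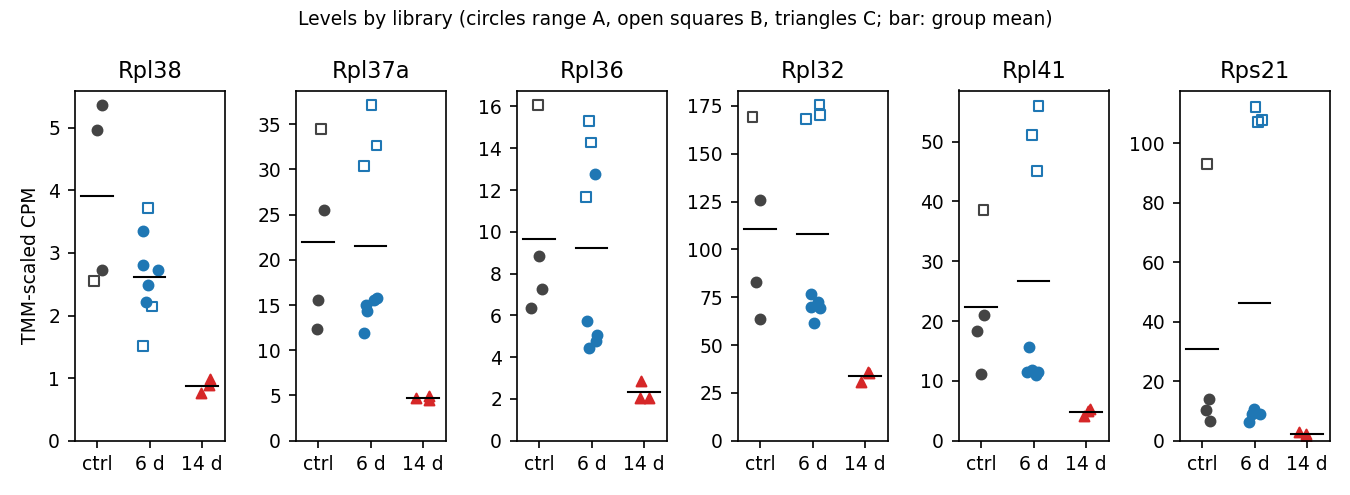
TMM-scaled CPM (vertical axis, linear, from 0) of 6 core genes in each library, by group, with the group mean as a bar. In all 6 panels the 14-day triangles lie below every control and 6-day point, and the open squares of range B lie above the circles of range A in each panel except Rpl38 and Rpl36.

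The count of called genes depended on range B, while the direction did not. Without its 4 libraries 32 of the 77 core genes fell at 14 days and none rose, against 7.07% of all genes lower and 5.92% higher. The median log2 fold change was then -0.93, and 76 of 77 were negative. With range B as a covariate 38 fell (8.72% of all genes lower), with a median of -0.89. With all 15 libraries DESeq2 called 24 lower (8.76% of all genes) and limma-voom 17 (11.1%). Of the 14-day libraries, leaving out number 1 ended all 4 calls, leaving out number 2 left 2 and number 3 left 1. Leaving out control 4 or control 3 left 2, with a median of -0.92 without control 4.

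Without range B the 8 lowest log2 fold changes were those of Rpl38, Rps21 (-2.20), Rpl37a, Rpl41 (-1.83), Rps29 (-1.79), Rplp2 (-1.77), Rpl36 and Rps26 (-1.66), and Rps29 alone of these did not pass (edgeR adjusted p = 0.07). These genes were picked by their values. At the other end stood Rpl23a (0.09), Rplp0 (-0.13), Rpl5 (-0.13), Rps2 (-0.20) and Rps4x (-0.22), none of which passed. The fitted fold changes thus ran from 4.998-fold lower for Rpl38 to a log2 value just above 0 for Rpl23a. Large and small subunit genes had medians of -0.97 and -0.93, with 20 of 46 and 12 of 31 called.

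The stalk proteins, which recruit translation factors to the large subunit, differed among themselves. Rplp0 was at 67.8, 35.6 and 46.1 CPM in the range A controls and at 57.7, 34.3 and 46.5 CPM at 14 days, so these groups overlapped (edgeR adjusted p = 0.793 without range B). Rplp1 was at 35.1, 15.8 and 28.4 CPM in the same controls and at 10.7, 10.01 and 11.7 CPM after 14 days. It fell without range B, with a log2 fold change of -1.31 (edgeR adjusted p = 0.0131). Rplp2 was at 9.38, 6.03 and 6.75 CPM and at 2.14, 2.16 and 2.27 CPM, and it fell too (log2 fold change -1.77, edgeR adjusted p = 0.00458). With all 15 libraries none of the 3 passed at 14 days (adjusted p = 0.418, 0.200 and 0.130).

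Rpl5 and Rpl11 encode proteins that form a particle with 5S ribosomal RNA and, outside the ribosome, bind MDM2 and so reach p53, whose gene is floxed in all groups. Rpl5 was at 20.03, 18.9 and 19.6 CPM in the range A controls and at 18.1, 18.9 and 17.3 CPM at 14 days (edgeR adjusted p = 0.667 without range B). Rpl11 was at 2.82, 3.56 and 4.72 CPM and at 1.66, 1.69 and 1.47 CPM. Its log2 fold change without range B was -1.22 (SE 0.33, adjusted p = 0.0332), and with all libraries -1.54 (adjusted p = 0.143).

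Rps6, the small subunit protein phosphorylated by S6 kinases, had the least negative value of all core genes in the comparison with all libraries. It was at 12.4, 8.53, 6.75 and 13.6 CPM in controls 1 to 4 and at 6.90, 6.98 and 6.54 CPM at 14 days, so the groups overlapped. The log2 fold change was -0.60 (SE 0.37, adjusted p = 0.346 by edgeR), or -0.46 (adjusted p = 0.312) without range B. Rps14 and Rps19, small subunit genes whose loss is known from inherited or acquired anaemia, had log2 fold changes of -1.63 (adjusted p = 0.0501) and -1.94 (adjusted p = 0.148). Without range B Rps14 fell (log2 fold change -1.32, adjusted p = 0.00306) and Rps19 did not pass (-1.50, adjusted p = 0.116).

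Rps19 varied differently from most core genes over the 15 libraries. It was at 67.0, 28.5, 58.5 and 129 CPM in controls 1 to 4 and at 26.9, 20.2 and 8.27 CPM at 14 days. At 6 days it ran from 4.45 CPM in library 5, of range B, through a median of 51.2 to 69.5 CPM in library 2, also of range B. The lowest and the highest 6-day value thus came from the same identifier range. Its correlation with the mean of the other core genes over the 15 libraries was 0.31, where the median core gene had 0.97 and 74 of 77 exceeded 0.8. The other low value was that of Rpl38, also 0.31. These libraries share the ranges described, and within the 8 libraries of range A the median was 0.70 and 26 of 77 exceeded 0.8. The lowest values there were those of Rpl23a (-0.72) and Rps6 (-0.21), not of Rps19.

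Between 14 and 6 days the fitted levels were lower as well. This comparison shares its 14-day libraries with the one above and is no separate evidence. All 77 log2 fold changes were negative, with a median of -1.80 (-0.06 for all genes). Of the 77, 5 fell and none rose, against 1.75% of all genes tested lower and 2.14% higher. They were Rpl37a, Rpl38, Rpl36, Rpl32 and Rpl41 (437 bases), all with listed transcripts under 600 bases. At that length 5 of 28 core genes fell (17.9%), against 21.0% of 224 genes that are not members. In 47 of the 77 all 14-day libraries lay below all 6-day libraries, against 6.28% of genes. Without range B 20 fell (3.63% of all genes lower), the median was -0.76 and 75 were negative. With range B as a covariate 30 fell (5.53% of all genes), and with all libraries DESeq2 called 52 lower (8.08%) and limma-voom 46 (12.4%).

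Rpl41 (Entrez Gene 67945, chromosome 10, 128548110 to 128549168), which encodes the smallest ribosomal protein, was at 11.0 CPM at the lowest, 13.8 CPM at the median and 56.0 CPM at the highest at 6 days. At 14 days it was at 4.16, 5.23 and 5.01 CPM, below every 6-day library. The log2 fold change was -2.48 (SE 0.66, adjusted p = 0.0494 by edgeR), or -1.34 (SE 0.24, adjusted p = 0.0143) without range B. Of the 15 fits that each left out 1 library only 1 kept its call. None of the 5 calls was kept without 14-day library 1 or without 14-day library 3, and 1 was kept without 6-day library 2.

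At 6 days against control no core gene passed in either direction. The test by edgeR called none of the 77, where 0.485% of all genes were higher and 0.773% lower. DESeq2 also called none, against 1.96% of all genes higher and 2.55% lower, and so did limma-voom, against 1.87% and 2.54%. At an unadjusted p under 0.05 edgeR gave 0 core genes, DESeq2 1 and limma-voom 0. The median log2 fold change was 0.24 with all libraries and -0.27 without range B, where 68 of 77 were negative. Its sign also turned when control 2, of range A, was left out (-0.03) or 6-day library 2, of range B (-0.11). The groups hold 1 of 4 and 3 of 8 libraries in that range. Within range A the median was -0.25, and within range B, which has 1 control, it was 0.00. In range A the 6-day libraries lay below all controls in 4 core genes (Rpl7, Rpl15, Rpl27 and Rpl39), against 6.56% of all genes.

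**Figure D3:**
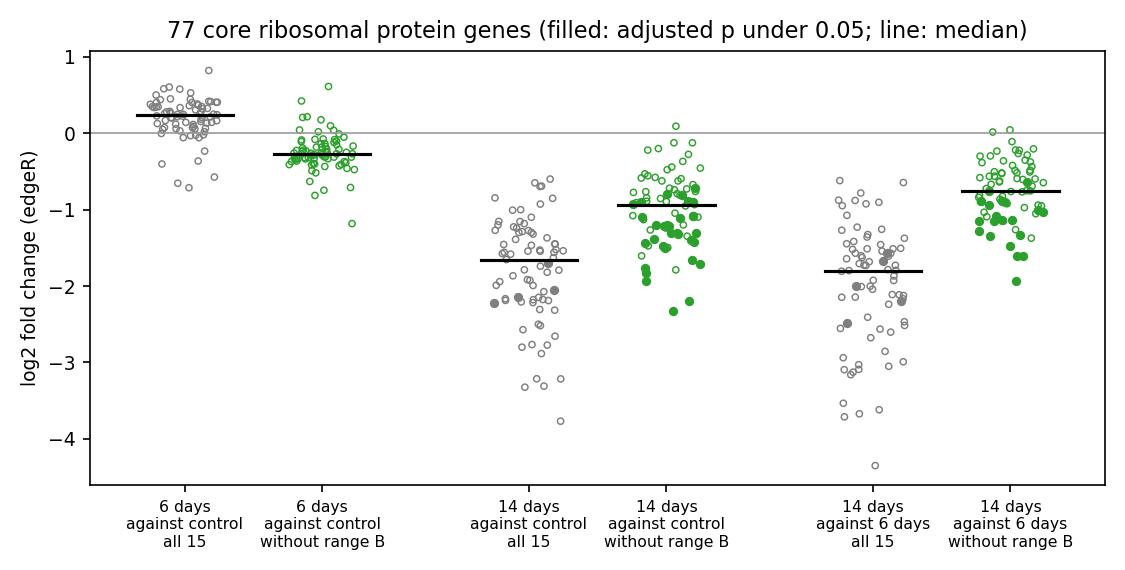
Log2 fold changes (vertical axis) of the 77 core genes in the 3 comparisons, each with all 15 libraries (grey) and without the 4 of range B (green), filled where the adjusted p is under 0.05, with the median as a line. The 6-day median changes sign, from 0.24 to -0.27, and the 14-day medians against control keep theirs at -1.65 and -0.93.

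The ranges differed in nearly every core gene. With group as a term, 74 of 77 core genes were higher in range B than in range A and none lower, against 22.7% of all genes higher and 20.8% lower. The median log2 fold change was 1.93. In 68 of the 77 all 4 range B libraries lay above all 8 of range A, against 15% of genes. The 3 that were not called were Rpl38, Rps19 and Rpl27. The largest differences were those of Rps4x (26.0-fold), Rpl37 (15.1-fold), Rpl35a (13.7-fold), Rpl7 (13.0-fold) and Rps21 (11.5-fold), named after their values were seen.

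Rps4x, the X-linked small subunit gene, was at 1.11, 1.52 and 1.78 CPM in the range A controls and at 46.0 CPM in control 4. At 6 days it was at 1.08 to 2.94 CPM in range A and at 62.6, 31.6 and 30.2 CPM in range B, and at 14 days at 1.29, 1.30 and 1.24 CPM. All 4 range B libraries lay above all others, and the 14-day values lay within the spread of range A. Without range B its 14-day log2 fold change was -0.22 (edgeR adjusted p = 0.765), where with all libraries it was -3.31 (adjusted p = 0.263). Rpl7 was also highest in range B, with 5.25 to 8.999 CPM in range A and 66.5 to 120 CPM in range B. Unlike those of Rps4x, its 14-day values (4.03 to 4.52 CPM) lay below every range A library.

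Some paralogs had the opposite sign between ranges. Rps27l, a p53-responsive paralog of Rps27, was lower in range B (log2 fold change -0.85, SE 0.17, edgeR adjusted p = 0.00143), as were Rpl32l (-1.79, adjusted p = 0.000367) and Rpl7l1 (-0.62, adjusted p = 0.00401). Rpl36al (-0.50) and Rps19bp1 (-0.32) did not pass. Rpl22l1 was higher (1.91, adjusted p = 9.65e-05), like its parent Rpl22 (2.30, adjusted p = 1.05e-08). The retrogenes Rpl37rt (1.66) and Rps27rt (2.54) were higher too (adjusted p = 9.01e-06 and 0.000122).

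Several paralogs were barely detected in these tumour cells. Rpl10l, the testis-expressed paralog of Rpl10, had 0 counts in all 15 libraries, where a count of 0 allows up to 0.0120 CPM in the deepest. Rpl39l, the testis-enriched paralog of Rpl39, had 1 count in 2 libraries and 0 in the other 13. Rpl3l, the paralog of Rpl3 in skeletal and heart muscle, was at 3 counts or fewer in 7 libraries and reached 0.35 CPM at most.

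Rps27l was far above its parent. It was at 125, 70.02, 91.0 and 42.9 CPM in controls 1 to 4, where Rps27 was at 3.09, 1.69, 2.22 and 7.55 CPM. At 14 days Rps27l was at 32.5, 41.2 and 41.2 CPM and Rps27 at 0.958, 1.22 and 0.825 CPM. The ratio of their counts ran from 18.2 to 46.0 in range A, from 5.16 to 9.45 in range B and from 33.7 to 49.7 at 14 days. The mean log2 ratio was 4.64 ± 1.42 (SD, n = 4) in control and 5.26 ± 0.323 (SD, n = 3) at 14 days (two-sided exact permutation p = 0.629, adjusted over 6 tests 0.663). The difference was 0.63, and without range B it was -0.08 (exact permutation p = 1). Of the 50-base words of the Rps27 transcript, 98.6% also occur at another locus, against 22.4% of those of Rps27l, so the level of Rps27 is uncertain. Rps27l itself had a log2 fold change of -1.10 (SE 0.34, edgeR adjusted p = 0.0634) at 14 days, and without range B it fell (-1.34, SE 0.22, adjusted p = 0.00446).

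Rpl22l1 and Rpl22 encode proteins that can replace each other in the ribosome. Rpl22l1 was at 2.82, 2.23, 3.37 and 11.9 CPM in controls 1 to 4 and at 0.910, 1.56 and 0.766 CPM at 14 days. Rpl22 was at 59.7, 49.9, 56.4 and 220 CPM and at 33.6, 48.5 and 48.1 CPM. The mean log2 ratio of paralog to parent was -4.29 ± 0.188 (SD, n = 4) in control, -4.59 ± 0.522 (SD, n = 8) at 6 days and -5.37 ± 0.526 (SD, n = 3) at 14 days. The difference at 14 days, -1.09, had a two-sided exact permutation p of 0.0571, or 0.218 adjusted over the 6 pair tests. The two-sided p is the one-sided p doubled, and for 4 against 3 libraries this is the smallest it can give, so this test cannot reach 0.05. Without range B the difference was -1.06 (exact permutation p = 0.1, the smallest for 3 against 3). None of the 6 tests passed.

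Of the other members, Rpl37rt and Rps19bp1 fell at 14 days with all libraries. Rpl37rt, a retrogene of Rpl37, was at 25.9, 14.0, 16.9 and 46.2 CPM in controls 1 to 4 and at 3.23, 4.77 and 4.58 CPM at 14 days (log2 fold change -2.62, SE 0.64, edgeR adjusted p = 0.0262). Rpl37 itself was lower than its retrogene in every library, at 2.74, 1.69, 2.28 and 28.1 CPM in controls 1 to 4 and at 0.896, 0.924 and 1.001 CPM at 14 days. Only uniquely aligning reads are counted, so reads that align to both of the 2 loci are left out and the levels of both are uncertain. Rps19bp1, which encodes a nucleolar protein that binds RPS19, was at 27.9, 19.2, 29.0 and 17.9 CPM in controls and at 11.3, 12.7 and 14.5 CPM at 14 days (log2 fold change -0.87, SE 0.24, adjusted p = 0.0409). Both calls were kept without range B (adjusted p = 0.00219 and 0.0143), and both were lost when any single 14-day library was left out. Rpl37rt was also lost without control 4, and Rps19bp1 without control 1, control 3 or 6-day library 1, 3 or 8. Rps23rg1 was at 1.16 CPM or less in every library and did not pass.

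The levels of the core genes, compared as the deposited RPKM, were very unequal. The gene lengths behind the RPKM are the authors' and can differ from the transcript lengths used below. In control 1 Rps15a was at 27.3 CPM and 4.56 RPKM, with a listed transcript of 640 bases. Rpl8, with 851 bases, was at 350 CPM and 348 RPKM there. Part of the spread in RPKM can come from these lengths. In range A they ran from 0.831 RPKM for Rpl28 to 260 RPKM for Rpl8, a 313-fold span around a median of 5.49 RPKM. In that range 35 of the 77 were under 5 RPKM. In range B the span was 322-fold around a median of 25.1 RPKM, and at 14 days 398-fold around 3.79 RPKM. The order of the genes was similar, with a Spearman rho of 0.97 between range A and 14 days and 0.86 between ranges A and B (77 genes, which share libraries and annotation).

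These levels moved with how much of each transcript is found elsewhere in the annotated transcripts. The median core gene had 55.4% of its 50-base words at another locus, and 73 of 77 had at least 10%, where the median of 14403 tested protein-coding genes was 0 and 7.07% had at least 10%. In range A the 18 genes with 10 to 40% had a median of 20.7 RPKM, the 24 with 40 to 70% had 5.20 RPKM and the 31 with at least 70% had 3.90 RPKM. Across the 77 genes the Spearman rho of shared words and RPKM was -0.46 in range A, -0.57 in range B and -0.46 at 14 days. The files count uniquely aligning reads, so levels of members with different shares of common words are not directly comparable.

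**Figure D4:**
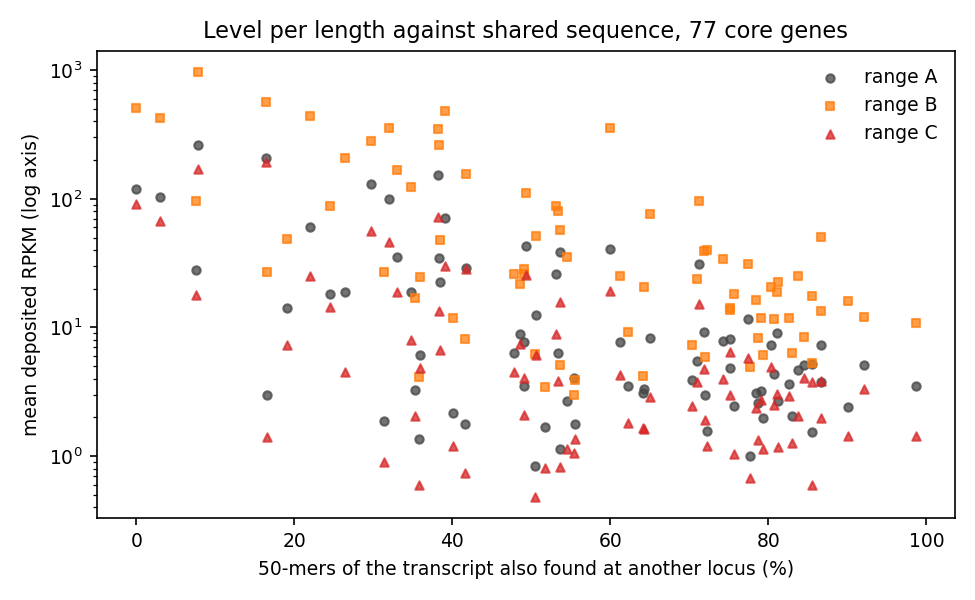
Mean deposited RPKM (vertical axis, logarithmic) of each of the 77 core genes against the percent of its 50-base words that occur at another locus (horizontal axis), for ranges A, B and C. Genes with 10 to 40% shared words have a median of 20.7 RPKM in range A, and those with at least 70% a median of 3.90 RPKM.

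Transcript length also went with the fold change at 14 days. Without range B the Spearman rho of the fold change across the 77 core genes was 0.16 with shared words and 0.44 with length, so the shorter genes had the more negative values. The 22 core genes with under 40% shared words had a median of -1.29 without range B, and 14 of them were called, against 7.07% of all genes lower. Other short genes were lower too. Among genes under 600 bases that are not members, the median without range B was -0.90 and 37.3% of 209 fell, against -1.22 and 14 of 28 for core genes of that length. From 600 to under 1000 bases the medians were -0.53 (27.6% of 753 fell) and -0.90 (11 of 32 fell). At 1000 bases or more they were 0.09 (5.50% of 12998 fell) and -0.81 (7 of 17 fell). With all 15 libraries, 22.3% of 224 other genes under 600 bases fell, a larger share than the 4 of 28 core genes (14.3%). The medians were then -0.79 and -2.02. Lengths are those of a single GENCODE M21 transcript per gene and can differ from the gene lengths behind the deposited RPKM. Rps20 was listed at 3706 bases but had 22.9 CPM and 39.2 RPKM in control 1. Rpl8, listed at 851 bases, had 350 CPM and 348 RPKM there. Core genes can therefore be misplaced among the length classes. The part of transcript length in the result was not tested.

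**Figure D5:**
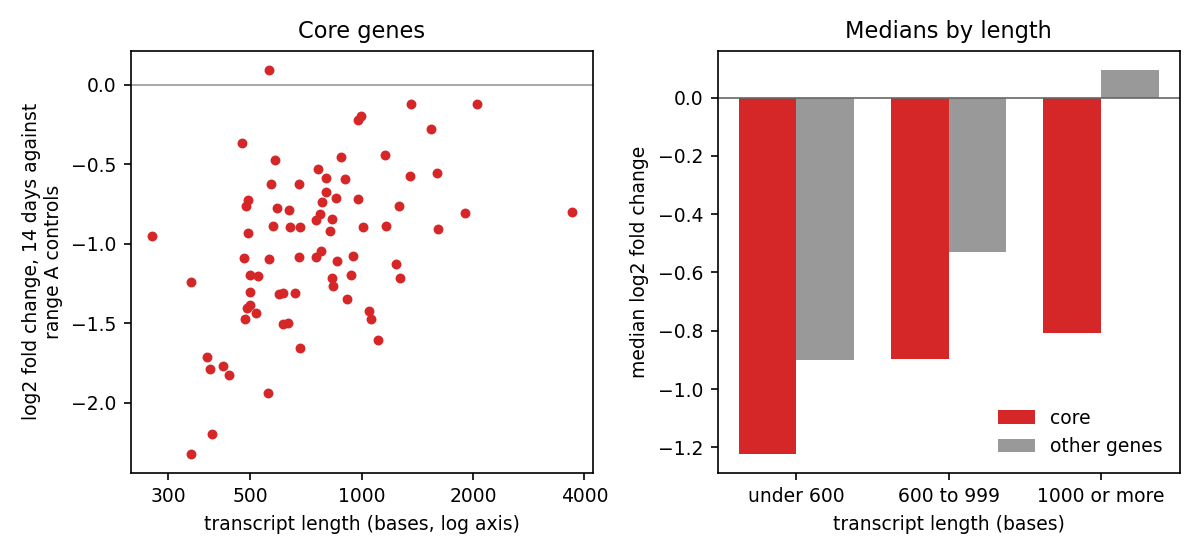
Log2 fold change at 14 days against the range A controls, without range B. Left, each core gene against the length of a single GENCODE transcript (logarithmic axis). Right, medians of core genes and of other genes in 3 classes of that length. Both sets are lowest under 600 bases (-1.22 and -0.90), and at 1000 bases or more the medians are -0.81 for core genes and 0.09 for others.

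Other genes of the pathway were counted on lists chosen by function. Of 18 translation factors and related genes whose messages also carry a terminal oligopyrimidine tract, 1 fell and none rose at 14 days, all 18 were negative and the median was -1.18. The background was 3.35% of all genes lower. That 1 was Btf3, a subunit of the nascent chain complex (log2 fold change -1.36, edgeR adjusted p = 0.0395). Without range B 4 fell (Btf3, Eef1b2, Eif3k and Eif3h), with a median of -0.66 and 15 negative, against 7.07% of all genes lower. Eef1a1, the elongation factor, averaged 242 CPM in the range A controls and 238 CPM at 14 days and did not pass. In range B 17 of the 18 were higher than in range A and none lower, against 22.7 and 20.8% of all genes.

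Of 56 ribosome biogenesis genes, 3 fell at 14 days and none rose, with a median of 0.04. They were Polr1d, a subunit shared by RNA polymerases I and III (-0.99, edgeR adjusted p = 0.0158), Gar1 of the H/ACA particles (-0.99, adjusted p = 0.0303) and Emg1, an 18S methyltransferase (-0.72, adjusted p = 0.0397). The share that fell is near the 3.35% of all genes. Without range B 5 fell (Nop10, Gar1, Polr1d, Emg1 and Nhp2), with a median of -0.04, against 7.07%. Between ranges 9 were higher and 15 lower in B, near the 22.7 and 20.8% of all genes. Of 17 regulators of ribosomal protein synthesis, 1 rose at 14 days and none fell, the kinase gene Rps6ka1 (0.72, adjusted p = 0.0183). Without range B Mtor (0.62, adjusted p = 0.00977), Rptor, Tsc2 and Rps6ka1 rose, against 5.92% of all genes. With all libraries 3.25% of all genes rose, so 1 of 17 is near the background. Myc averaged 53.9 CPM in the range A controls and 107 CPM at 14 days and did not pass (adjusted p = 0.382 without range B).

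Mitochondrial ribosomal proteins are made by 78 other genes. Of these 8 fell and none rose at 14 days, with a median of -0.39, against 3.35% of all genes lower. Without range B 35 fell, with a median of -0.55, against 7.07%. In range B 39 were lower and 6 higher than in range A (20.8 and 22.7% of all genes), with a median of -0.47, opposite in sign to the 1.93 of the cytosolic core genes. At 6 days 1 fell (Mrps6). On none of the 4 lists did the count at 6 days exceed 1 gene.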

How the data were processed

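Per the file headers, each deposited file gives the authors' count of reads that align uniquely to each gene model and a size-factor-adjusted RPKM. GSNAP and the build GRCm38 are named per the submitters' processing notes. Read length, strand handling and annotation: not given in the sources used here. Groups came from the treatment label. Of the 36528 Entrez identifiers, 31049 matched the RefSeq table (GRCm38.p6), and 5479, with 1.24 to 1.59% of counts, did not. Members, lists, named genes and tests were chosen with earlier results of these data known.

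The main test was the quasi-likelihood F test of edgeR 4.0.16 (R 4.3.3) on counts, with TMM and filterByExpr, in 1 fit of 15 libraries, over 18751 genes, adjusted by Benjamini-Hochberg, with genes called under 0.05. CPM are TMM-scaled and ± is the SD. The common biological coefficient of variation was 0.579 with 12 residual degrees of freedom. RPKM served for levels per length only. Alternatives were DESeq2 1.42.0, limma-voom (limma 3.58.1), other scalings and filters, range B as a covariate or left out, and each library left out. Added after seeing the data were core genes with under 40% shared words and other scalings of the range contrast. The fit was tested on simulated data with known changes. Each gene was drawn independently and the simulated libraries had no ranges. The rates below may therefore not hold for the core genes, which shift together between ranges. At 6 days it recovered 11 of 98 2-fold and 52 of 99 4-fold changes, with 3 of 66 calls false. At 14 days against control it recovered 6 of 98 2-fold and 42 of 98 4-fold changes, with 2 of 50 calls false. Most 2-fold changes were thus missed, so a gene that was not called may still have changed.

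In each of 105 library pairs the counts differed beyond sampling noise (chi-square over degrees of freedom at least 52.8). A floor of 3 counts equals at most 0.105 CPM, and floors cover counting error only, since the counts do not mark PCR duplicates. Named were members fixed for known roles, paralogs and retrogenes, up to 8 called per comparison by smallest p, and the 4 highest and 4 lowest fold changes of core genes whose mean was 10 CPM or more. Others are named as members of lists or bins. Ratios of paralog to parent used a pseudocount of 0.5 and exact permutation tests, whose two-sided p is the one-sided p doubled. Pairs of Rpl39l and Rpl3l were left out, since the paralog was at 3 counts or fewer in 15 and 7 libraries. Shared words were exact 50-base matches, on either strand, between GENCODE M21 transcripts of different loci, computed with Python 3.11.15. Shares of words and transcript lengths refer to a single transcript per gene, chosen by annotation rank and then as the shortest.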

Additional observations from a re-analysis of the deposited data

Results flagged for a closer look

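Of 81 groups of 4 to 10 libraries examined for the genes and ratios described, 20 held 1 library far from the rest. A chance rate of about 1 in 20 groups holds for independent groups. These genes varied together over the libraries, so that rate is no measure of the count here. In 17 of the 20 it was control 4, the 1 control of range B. In control 4 the level was 220.1 CPM for Rpl22 (next library 59.7), 11.9 for Rpl22l1 (3.37), 31.4 for Rpl3 (11.8), 12.7 for Rpl39 (2.68) and 58.7 for Rpl5 (20.03). It was 104 CPM for Rpl7 (8.999), 287 for Rplp0 (67.8), 168 for Rplp1 (35.1), 59.0 for Rplp2 (9.38) and 25.4 for Rps18 (6.65). It was 92.9 CPM for Rps21 (13.9), 134 for Rps26 (34.3), 46.0 for Rps4x (1.78), 9.22 for Rpsa (3.04) and 2.87 for Rps27rt (0.656). Rpl3l was at 0.313 CPM in control 4 and at 0 in the other controls. The log2 ratio of Rps27l to Rps27 was 2.50 in control 4, against 5.33 in the nearest control. At 6 days, library 2, also of range B, stood apart for Rpl11 (12.6 CPM, next 6.79) and Rpl39 (21.6 CPM, next 9.99). Library 8 had the only 6-day count of Rpl39l, 0.0277 CPM.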

How the results depend on the processing

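No paired analysis was possible because replicate numbers were given in accession order and pair no libraries. The 6-day median of the core genes changed sign, from 0.24 to -0.15 with range B as a covariate, -0.27 without range B, -0.25 in range A alone and -0.31 without range B in core genes with under 40% shared words. It lay between -0.11 and 0.93 with 1 library left out (negative without control 2 or 6-day library 2). At 14 days against control, 4 calls became 24 by DESeq2, 17 by limma-voom, 1 with the 2 groups alone, 38 with range B as a covariate, 32 without range B and 0 to 6 with 1 library left out. The 22 genes with under 40% shared words gave 2, and 14 without range B, against 3.35 and 7.07% of all genes lower. Between 14 and 6 days, 5 calls became 52 by DESeq2, 46 by limma-voom, 1 with no filter, 30 with the covariate, 20 without range B and 0 to 9 with 1 library left out. The genes with under 40% shared words gave 2 there, and 10 without range B, against 1.75 and 3.63% of all genes lower. The median moved from -1.80 to -0.76 without range B. The cause was not tested. Every core median at 14 days stayed negative, between -1.88 and -0.92 against control and between -1.91 and -1.58 against 6 days with 1 library left out. The Rpl22l1 to Rpl22 ratio between 14 and 6 days was -0.79 and ran from -1.0 to -0.49 with 1 library left out. It passed an unadjusted 0.05 at -0.90, without 6-day library 7. The core share was 1.11, 1.25 and 0.365% of summed RPKM in control, at 6 and at 14 days, and all members took 0.153% of counts at 14 days. With RLE factors the range contrast called 74 core genes and with library totals 72. The fits pool the spread where 2 libraries of 14 days are left.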
